A study of Homo sapiens with 6 samples.

Results

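The S100 proteins are small calcium-binding proteins, and the 10 members described here are S100A2, S100A3, S100A4, S100A6, S100A8, S100A9, S100A11, S100A13, S100A14 and S100A16. They were taken by gene symbol from the deposited table, where each matched 1 of 58735 gene rows, and 11 further S100 genes of the table served for comparison. Gene expression was measured by RNA sequencing in MDA-MB-231, a human line established from a breast cancer of the triple-negative subtype, to ask how exposure to PM2.5 (fine airborne particulate matter) bears on the malignancy of this subtype. Of the 6 libraries 3 are labelled Control and 3 PM2.5, with RNA taken after 48 h of exposure; all come from this 1 line, with particle dose and control vehicle not given in the sources used here. Total counts ran from 31846136 to 34691009 per library. The labels do not say how separate the cultures were, so p-values measure only the spread between these libraries, which may be technical. HMOX1, a haem-degrading enzyme known to be induced by particulate matter, was at 812 ± 58.2 CPM (counts per library scaled to a common total) with the label Control and 51.2 ± 6.0 CPM with the label PM2.5 (SD, n = 3 each). CYP1A1, a detoxifying enzyme known to be induced by the aromatic hydrocarbons that particles carry, was at 6.28 ± 1.73 and 2.73 ± 0.649 CPM. Both thus went against what is known of such exposure. Whether the labels were exchanged was not tested, and every direction below is for the libraries as labelled and would reverse if they were.

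Each S100 protein carries a pair of EF-hands, helix-loop-helix folds that bind calcium in most of the family. Most act as dimers that change shape with calcium and then bind target proteins. Inside the cell they touch the cytoskeleton, annexins and membrane traffic, and several leave the cell and bind surface receptors such as RAGE (gene AGER) and TLR4. Most of the family's genes lie side by side on the long arm of chromosome 1, in and beside the region that holds the genes of the skin barrier. In breast cancer S100A4 is known for its part in cell motility and metastasis, and S100A8 and S100A9 as products of infiltrating myeloid cells.

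All 10 members had at least 1 RefSeq start with an upstream window of 250 bases (GRCh38.p14), 16 windows in all. The sequences below are the stretches before a start of S100A2, S100A3, S100A4 and S100A11. They run 5′ to 3′ on the minus strand, and bases of a window that lie in any exon of GENCODE 29 are left out. The RefSeq starts of S100A2, S100A3, S100A4 and S100A11 used here lie inside the genes as the table spans them, downstream of their outermost annotated start. Capitals mark matches to any of the 4 motifs searched. S100A2 is shown at chr1:153565866-153566094, S100A3 at chr1:153549373-153549508, S100A4 at chr1:153545886-153546056 and S100A11 at chr1:152037036-152037254.
S100A2: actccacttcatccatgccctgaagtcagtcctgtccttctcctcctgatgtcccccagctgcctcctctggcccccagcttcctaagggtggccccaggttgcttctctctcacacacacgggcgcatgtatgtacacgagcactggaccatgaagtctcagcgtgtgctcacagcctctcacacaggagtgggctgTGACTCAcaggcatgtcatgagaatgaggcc
S100A3: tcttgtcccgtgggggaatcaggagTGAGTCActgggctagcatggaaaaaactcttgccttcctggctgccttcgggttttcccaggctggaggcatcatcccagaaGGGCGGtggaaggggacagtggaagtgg
S100A4: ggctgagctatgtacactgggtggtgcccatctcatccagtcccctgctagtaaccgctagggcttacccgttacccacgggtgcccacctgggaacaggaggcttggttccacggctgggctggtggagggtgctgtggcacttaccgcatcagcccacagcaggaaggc
S100A11: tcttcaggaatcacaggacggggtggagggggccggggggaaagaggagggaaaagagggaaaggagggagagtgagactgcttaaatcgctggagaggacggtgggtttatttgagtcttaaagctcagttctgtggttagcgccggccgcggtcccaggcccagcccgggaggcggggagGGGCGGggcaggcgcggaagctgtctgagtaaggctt

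The motifs were searched on both strands of the whole 250-base windows: the TATA box as TATAAA, the AP-1 site as TGANTCA, the GC box as GGGCGG and the antioxidant response element by its core TGACNNNGC, of which the AP-1 and antioxidant letters can overlap. The AP-1 letters stood in the windows of S100A2 and S100A3, 2 of 16 member windows or 12.5%, against 6.57% of all 35116 windows of this length. TATA letters stood in 5 member windows (31.2%, against 10.7% of all), of S100A4, S100A8, S100A9 and S100A13. Windows of S100A8 overlap, so the same TATA letters there were counted more than once. The S100A4 match begins 31 bases before the start, inside an annotated exon and so outside the printed stretch. GC boxes were in 6 member windows (37.5%, against 42.6% of all), that of S100A11 among them. The antioxidant core was in 2 (12.5%, against 10.9% of all), of S100A13 and S100A14. These matches describe letters and say nothing of whether a factor binds.

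All 10 members lie on chromosome 1. On GRCh38, as the deposited table gives it, S100A11 stands apart at 152032506 to 152047907, next to S100A10. The others lie between 153357854, where S100A9 starts, and 153631360, where S100A13 ends, with S100A6 at 153534599 to 153536244, S100A2 at 153561108 to 153567890, S100A16 at 153606886 to 153613145 and S100A13 from 153618787. S100A9 is on the plus strand and the other 9 are on the minus strand. S100A3 (153547329 to 153549372) lies within an intron of the longest S100A4 transcript (S100A4 spans 153543613 to 153550136), on the same strand, but their exons do not overlap. Exons of other genes cover 33.5% of the exonic bases of S100A13, which meets S100A1 on the opposite strand and AL162258.1 on its own; the latter had 0 counts and S100A1 had 25 counts over the 6 libraries, against 5783 for S100A13. No other member had more than 2.37% of its exonic bases under another gene. For S100A11, 1.9% of its 50-base stretches also occur in another gene's transcripts, and its 13 pseudogenes in the table held 0 counts; how reads shared with such copies were counted was not tested.

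The family was present at very unequal levels. Together the 10 members took 0.358% ± 0.0366 (SD, n = 3) of a Control library's counts and 0.337% ± 0.0207 of a PM2.5 library's, and the groups overlapped. S100A6 alone held 50.9% ± 0.397 of the members' CPM in Control and 52.8% ± 0.296 in PM2.5. Per kilobase of exon, the scale on which genes can be compared, the order in Control was S100A6 (1901 ± 286 CPM per kb), S100A11 (1010 ± 148), S100A16 (516 ± 76.9), S100A4 (159 ± 13), S100A13 (14.9 ± 1.23), S100A2 (11.1 ± 1.72), S100A3 (4.19 ± 1.27) and S100A14 (0.0807 ± 0.0286). In that order no library of a gene reached into the range of the next member. In PM2.5 S100A2 stood above S100A13 at 13.9 ± 0.538 and 11.4 ± 0.376 CPM per kb, and S100A13 overlapped with S100A3 at 10.3 ± 1.2. Per kilobase of coding sequence S100A16 came before S100A11 in either group. On that scale S100A13 stayed above S100A2 in PM2.5, at 85.9 ± 2.84 and 74.6 ± 2.9 CPM per kb. S100A3, at 32.4 ± 3.79, then did not overlap with them.

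**Figure D1:**
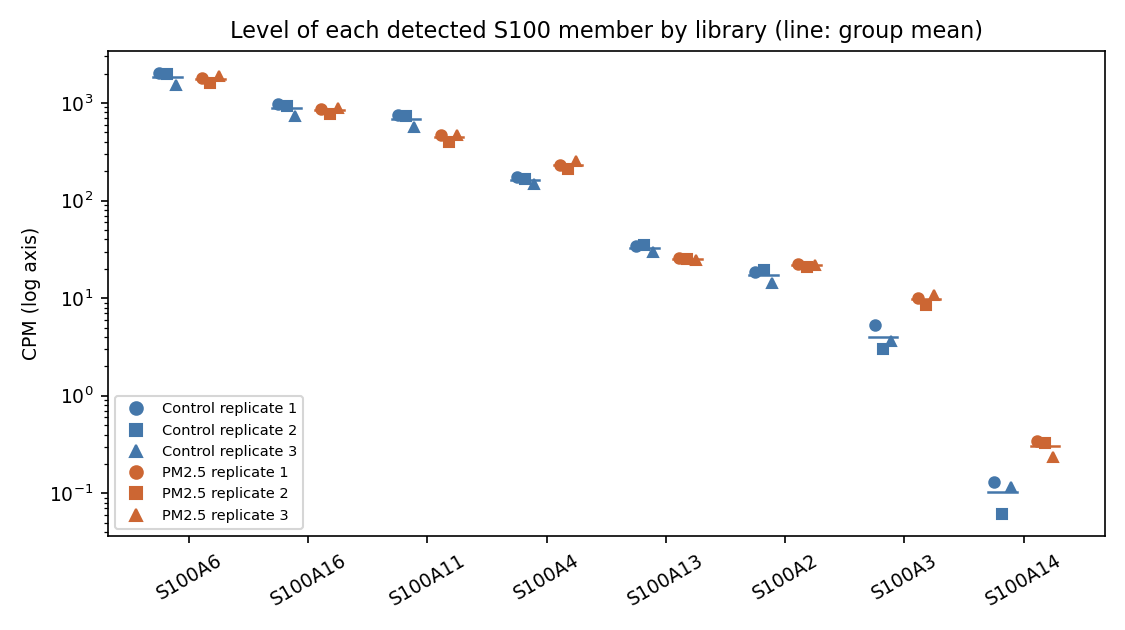
Level in CPM (log axis) of the 8 members with counts, in the 3 libraries labelled Control (blue) and the 3 labelled PM2.5 (orange), with a line at each group mean. S100A2, S100A3, S100A4 and S100A14 sit higher and S100A11 and S100A13 lower in every PM2.5 library than in every Control library, while S100A6 and S100A16 overlap.

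Of the 10 members 7 passed the filter on low counts, and between the groups they split. With edgeR (quasi-likelihood test, p-values adjusted after Benjamini and Hochberg over all 14975 tested genes), S100A3 and S100A4 rose in the libraries labelled PM2.5, S100A11 and S100A13 fell, and S100A2, S100A6 and S100A16 did not pass the threshold of 0.05 on the adjusted p. Over all tested genes 31.9% passed it, 16.1% higher and 15.8% lower. A call with at least a 2-fold change was made for 1 of the 7, S100A3, and for 7.22% of all tested genes. Control and PM2.5 libraries were fully separate for 5 of the 7 tested members, and for 44.3% of all tested genes. The median log2 fold change (PM2.5 over Control) of the 7 was -0.06, against -0.009 over all tested genes. Fewer cells of a type and less RNA per cell cannot be told apart in these bulk samples.

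S100A4 (ENSG00000196154), also called metastasin, binds non-muscle myosin and is known for promoting cell movement. Its level was 174, 166 and 148 CPM across Control libraries 1 to 3, against 229.5, 210.3 and 256 CPM across PM2.5 libraries 1 to 3. Every PM2.5 library was above every Control library. S100A4 rose 1.43-fold, a log2 fold change of 0.51 with an SE of 0.10 (n = 3 a group; edgeR adjusted p = 0.00115). MYH9, the heavy chain of non-muscle myosin IIA that S100A4 binds, was at 1470 CPM and 1677 CPM (means of Control and PM2.5) and did not pass the test; it was chosen after its values were seen.

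S100A3 (ENSG00000188015), a cysteine-rich member best known from the hair cuticle, was the member with the largest change among the 7. It was at 5.35, 3.02 and 3.63 CPM across Control libraries 1 to 3, against 9.99, 8.59 and 10.9 CPM across PM2.5 libraries 1 to 3. The groups were well apart, although the Control libraries differed among themselves by more than those of any other tested member on the log scale. S100A3 rose 2.46-fold, with means of 4.001 ± 1.21 and 9.82 ± 1.15 CPM (SD, n = 3 each; log2 fold change 1.30, SE 0.20; edgeR adjusted p = 0.00017). Set against S100A4, whose intron holds it, its counts were 2.45% ± 0.633 of the S100A4 counts in Control and 4.22% ± 0.135 in PM2.5, so that its level moved by more than that of S100A4. Whether reads of unspliced S100A4 RNA, which would cover S100A3 on the same strand, entered its counts was not tested.

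S100A11 (calgizzarin, ENSG00000163191), which binds annexins and takes part in membrane repair and epithelial growth control, was the abundant member that fell. It was at 758, 731 and 572 CPM across Control libraries 1 to 3, against 464, 401 and 473 CPM across PM2.5 libraries 1 to 3. Control replicate 3 was the lowest Control library and still above all PM2.5 libraries. S100A11 fell 1.54-fold, from 687 ± 101 to 446 ± 39.3 CPM (SD, n = 3 each; log2 fold change -0.62, SE 0.12; edgeR adjusted p = 0.00071).

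S100A13 (ENSG00000189171) takes part in the release of FGF1 and interleukin 1 alpha, which leave the cell without a signal peptide. It was at 34.3, 34.8 and 29.9 CPM across Control libraries 1 to 3, against 26.1, 25.3 and 24.4 CPM across PM2.5 libraries 1 to 3, so the groups did not overlap. S100A13 fell 1.31-fold (log2 fold change -0.39, SE 0.11; edgeR adjusted p = 0.0127). Leaving out Control replicate 1, Control replicate 2 or PM2.5 replicate 1 ended this call (edgeR adjusted p = 0.0603, 0.0622 and 0.0525), as did removal of the trend on gene length (0.0614). FGF1 itself rose by 1.29 ± 0.30 on the log2 scale, from 1.31 to 3.21 CPM; it was chosen after its values were seen.

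S100A2 (ENSG00000196754), an epithelial member often lost in tumours and a known p53 target, was at 18.4, 19.4 and 14.3 CPM across Control libraries 1 to 3, against 22.6, 20.9 and 21.6 CPM across PM2.5 libraries 1 to 3. The groups did not overlap, but the difference did not pass the test (log2 fold change 0.32, SE 0.13; edgeR adjusted p = 0.072). With the trend on gene length removed it did (0.45, edgeR adjusted p = 0.00645).

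S100A6 (calcyclin, ENSG00000197956), a partner of annexins and of the ubiquitin ligase adaptor CACYBP, was the most abundant member. It was at 2034, 1978 and 1527 CPM across Control libraries 1 to 3, against 1796, 1605 and 1906 CPM across PM2.5 libraries 1 to 3, so the groups overlapped. Its log2 fold change was -0.06 with an SE of 0.12 (edgeR adjusted p = 0.732), with a 95% interval from -0.32 to 0.20. S100A16 (ENSG00000188643), a widely expressed member, was at 979, 925 and 730 CPM across Control libraries 1 to 3, against 859, 778 and 892 CPM across PM2.5 libraries 1 to 3. Its groups overlapped too, with a log2 fold change of -0.06 ± 0.12 and an interval from -0.30 to 0.19. For either gene the interval leaves out changes as large as those fitted for S100A3, S100A4 and S100A11.

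**Figure D2:**
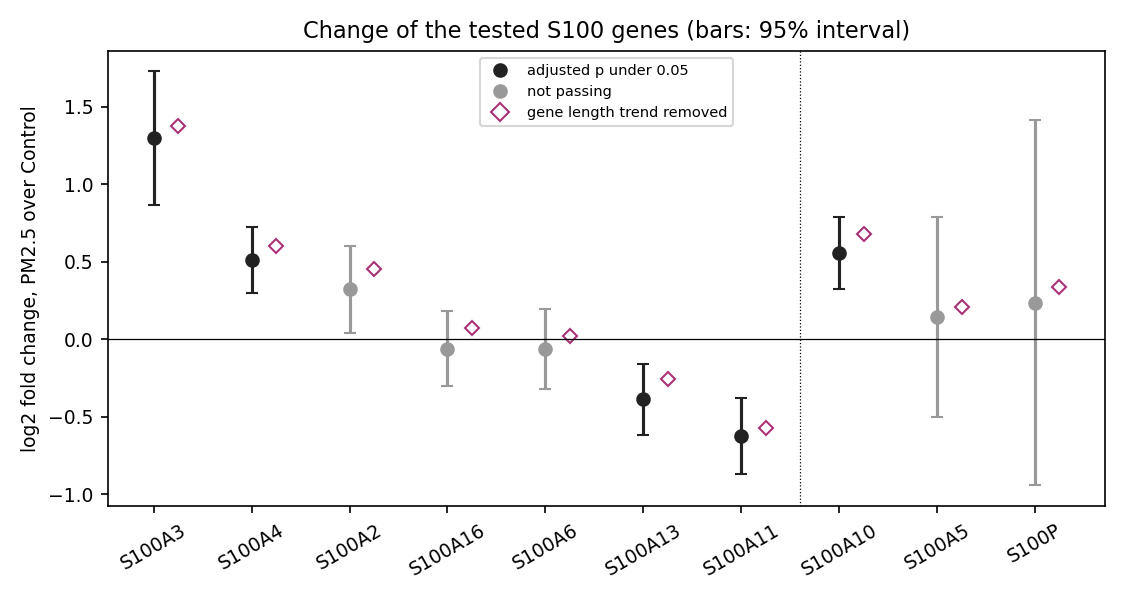
Log2 fold change (PM2.5 over Control) of the 7 tested members, left of the dotted line, and of 3 further S100 genes, with 95% intervals as bars and the value after removal of the gene length trend as open diamonds. S100A3 (1.30) and S100A4 (0.51) lie above 0 and S100A13 (-0.39) and S100A11 (-0.62) below, and S100A6 and S100A16 have intervals across 0.

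S100A8 and S100A9, which form calprotectin, the zinc- and manganese-binding protein of neutrophils and monocytes, had 0 counts in all 6 libraries. A count of 0 allows up to 3 counts, or 0.0864 to 0.0979 CPM depending on the library (a limit for counting error only, as without molecular identifiers a read is not a molecule). Of 15 leukocyte markers 6 were at 0 in every library, among them PTPRC (CD45), CSF3R, FCN1 and MPO, and the list's summed level was 11.6 to 15.1 CPM in Control and 10.04 to 12.4 CPM in PM2.5. Others had counts: ITGAX fell from 10.1 to 4.65 CPM, and LYZ, ITGAM and CD14, at group means of 3.08 CPM or less, rose. S100A14, an epithelial member, was near the limit of detection with 4, 2 and 4 counts across Control libraries 1 to 3, against 12, 11 and 8 across PM2.5 libraries 1 to 3. Its libraries did not overlap, but it did not pass the filter on low counts and was not tested; without that filter its log2 fold change was 1.52 with an edgeR adjusted p of 0.318.

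Libraries departed from their group means together across members. In Control replicate 3 all 7 tested members were below their group's mean log2 CPM, with departures from -0.0989 for S100A3 to -0.264 for S100A2, and in PM2.5 replicate 2 all except S100A13 were below it. Short genes as a class went the same way, by less than most members. For the 918 tested genes with up to 1 kb of exon, the class of S100A3, S100A6 and S100A11, the median departure was -0.0699 in Control replicate 3 and -0.0178 in PM2.5 replicate 2. For the 1393 genes with 1 to 2 kb, the class of S100A2, S100A4 and S100A16, it was -0.108 and -0.0586, for the 3955 genes with 2 to 4 kb, the class of S100A13, it was -0.0445 and -0.0484, and for the 2928 genes over 8 kb it was 0.0881 and 0.0799. Control replicate 3 also stood apart on the second principal component (15% of the variance), at -36.94 against 16.48 and 14.83 in the other Control libraries. The median log2 fold change between the groups was -0.035 for genes up to 1 kb, -0.13 for 1 to 2 kb, -0.093 for 2 to 4 kb and 0.11 for those over 8 kb. The part of this trend in the members' changes was measured by its removal: S100A3 then changed by 1.38, S100A4 by 0.60 and S100A11 by -0.57. Without Control replicate 3 the values were 1.23, 0.45 and -0.74.

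**Figure D3:**
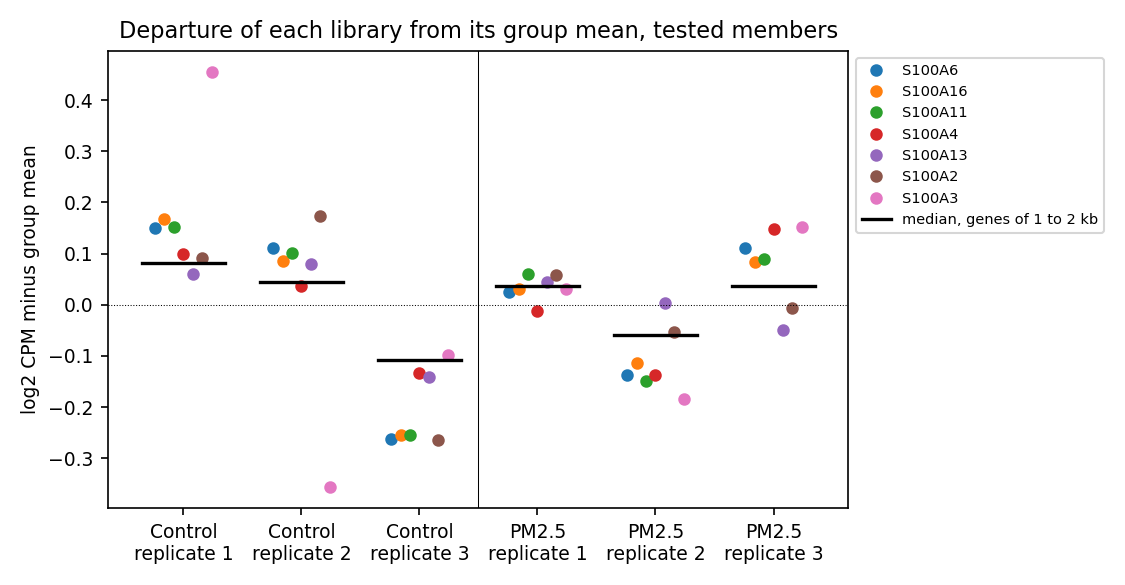
Difference of each tested member's log2 CPM from its group mean in the 6 libraries, with a black line at the median of the tested genes with 1 to 2 kb of exon. Control replicate 3 has every member below 0, down to -0.264, and its line at -0.108; PM2.5 replicate 2 has all members but S100A13 below 0.

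Ratios of members within a library do not depend on library scaling. The ratio of S100A4 to S100A11 counts, chosen after the values were seen, was 0.229, 0.228 and 0.259 across Control libraries 1 to 3, against 0.494, 0.525 and 0.542 across PM2.5 libraries 1 to 3. It was thus tight within each group (0.239 ± 0.0174 and 0.52 ± 0.0241, SD, n = 3 each) and far apart between them. S100A10, which is no member but lies beside S100A11 on the chromosome, was also chosen after its values were seen; its ratio to S100A11, which shares that denominator, was 0.307 to 0.329 in Control and 0.701 to 0.746 in PM2.5. S100A10 rose and S100A11, its neighbour, fell.

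**Figure D4:**
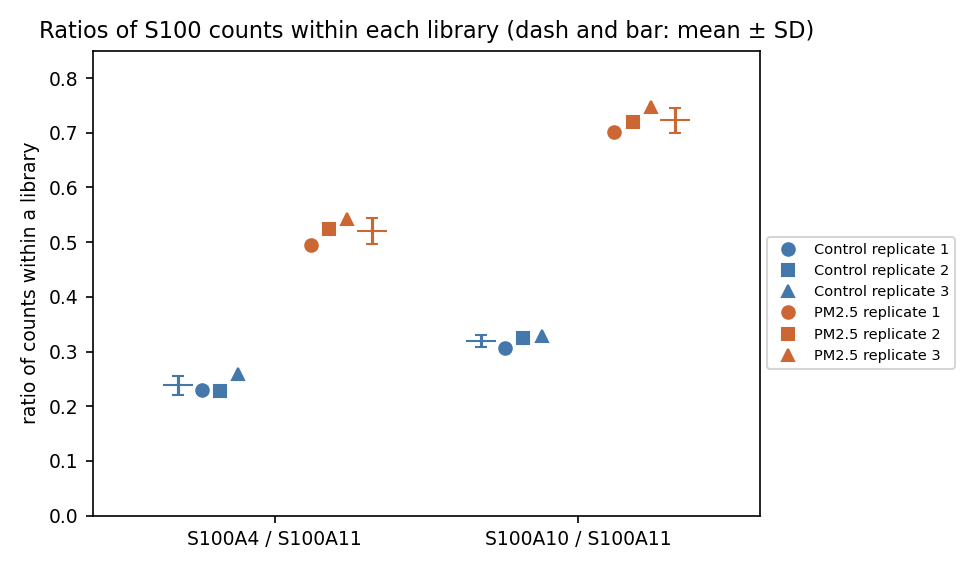
Ratio of S100A4 to S100A11 counts and of S100A10 to S100A11 counts within each library, with the mean and SD of each group as a dash and bar. The Control libraries lie at 0.228 to 0.259 and 0.307 to 0.329 and the PM2.5 libraries at 0.494 to 0.542 and 0.701 to 0.746.

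Among the 11 other S100 genes 3 were tested, 1 rose and 0 fell (33.3%, against 31.9% of all genes). S100A10 (p11), a member that does not respond to calcium and joins a pair of annexin A2 molecules at the plasma membrane, was at 233, 237 and 188 CPM across Control libraries 1 to 3, against 325, 289 and 353 CPM across PM2.5 libraries 1 to 3. It rose 1.47-fold without overlap (log2 fold change 0.56, SE 0.11; edgeR adjusted p = 0.00114). S100A5, at 1.46 ± 0.249 and 1.62 ± 0.376 CPM, and S100P, at 0.29 ± 0.103 and 0.34 ± 0.125 CPM, did not pass. S100A7, S100A7A, S100A7L2, S100A12 and S100B had 0 counts in all libraries.

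Of 31 known receptors and binding partners of S100 proteins 27 were tested, and 9 rose and 2 fell (40.7%, against 31.9% of all genes; median log2 fold change 0.24). Annexin A2 (ANXA2), the partner of S100A10, rose from 1241 ± 98.1 to 2166 ± 41.5 CPM (log2 fold change 0.80 ± 0.10), and AHNAK, a giant scaffold protein that binds their complex, rose from 955 ± 132 to 1470 ± 155 CPM (0.62 ± 0.12). Of the surface receptors, ALCAM, which S100B is known to bind, rose from 114 ± 4.33 to 229 ± 39.7 CPM (log2 fold change 1.002 ± 0.12), while the cation channel TRPM4 fell from 43.8 ± 6.75 to 27.7 ± 1.67 CPM (-0.66 ± 0.12). Among receptors of extracellular S100 proteins, AGER (RAGE) was at 1.17 CPM in Control and 2.38 CPM in PM2.5 (log2 fold change 1.03 ± 0.34), a rise. It had only 19 to 91 counts in a library. TLR4, at 19.1 and 24.4 CPM, did not pass. CD36, with 11 counts over all libraries, and ERBB4, with 32, were not tested. AGER, TLR4, CD36 and ERBB4 were chosen after their values were seen. The other annexins of the list, also chosen after their values were seen, did not pass: ANXA1 was at 478 and 519 CPM, ANXA5 at 705 and 695 CPM, ANXA6 at 566 and 677 CPM and ANXA11 at 199.7 and 205.7 CPM (means of Control and PM2.5).

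Other EF-hand proteins of the cytosol also moved both ways, with 7 of 28 tested genes higher and 7 lower (50%, against 31.9% of all genes; median log2 fold change -0.07). The actin bundler PLS3 rose by 0.83 ± 0.11 on the log2 scale, the actin-binding EFHD2 by 0.74 ± 0.10 and the actin cross-linker ACTN4 by 0.65 ± 0.10, and the leukocyte-type plastin LCP1 fell by 0.74 ± 0.11. Of 23 tested transcription factors known for S100 genes 3 rose and 6 fell (39.1%; median -0.04). CEBPB, a known driver of S100A8 and S100A9 in myeloid cells, fell from 500.5 ± 78.2 to 250 ± 26.9 CPM, EPAS1 (HIF-2 alpha) fell by 0.48 ± 0.09, beta-catenin (CTNNB1), known for its link to S100A4, fell by 0.34 ± 0.09 and KLF4 rose by 0.43 ± 0.10. Without PM2.5 replicate 1 the number of these factors called was 3 in place of 9.

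Along chromosome 1 the stretch from S100A10 to S100A1 holds 64 protein-coding genes, of which 45 had 0 counts in all 6 libraries and 11 were tested. Of these 11 tested genes 9 were S100 genes; the other two, HRNR and FLG of the skin barrier, did not pass, at 0.718 and 0.579 CPM and at 0.466 and 0.521 CPM (means of Control and PM2.5). In order of position from S100A10 the log2 fold changes of the S100 genes were 0.56 for S100A10, -0.62 for S100A11, -0.06 for S100A6, 0.15 for S100A5, 0.51 for S100A4, 1.30 for S100A3, 0.32 for S100A2, -0.06 for S100A16 and -0.39 for S100A13. The neighbours S100A4 and S100A3 rose, and the genes on either side of them, S100A5 and S100A2, did not pass. Among 21 skin-barrier genes of the region 15 were at 0 in every library and the 2 tested ones did not pass. Of 16 tested non-S100 genes beside the cluster 2 rose and 2 fell (25%, against 31.9% of all genes): TPM3 by 0.32 ± 0.09 and ILF2 by 0.27 ± 0.10 on the log2 scale upward, RAB13 by -0.56 ± 0.15 and SNAPIN by -0.42 ± 0.12. Without PM2.5 replicate 1 the number called was 1 and without Control replicate 1 it was 2, in place of 4.

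The cell line's own markers were checked. VIM, at 2289 and 2681 CPM, CD44, at 1524 and 1544 CPM, and KRT18, at 171 and 305 CPM (means of Control and PM2.5), were abundant, and ESR1 and CDH2 had 0 counts, with 10 for PGR and 3 for CDH1 over the 6 libraries. Of 9 tested markers of the line and of breast subtypes 3 rose and 3 fell (66.7%, against 31.9% of all genes). KRT18 was among those that rose, by 0.84 ± 0.10 on the log2 scale. Of the 13 keratinocyte and basal markers 4 were at 0 in every library, KRT1 and KRT6A among them, and the list summed to 167 to 221 CPM in Control and 214 to 228 CPM in PM2.5. Of 6 tested genes of that list 3 rose and 0 fell (50%, against 31.9% of all genes). KRT15 rose by 0.60 ± 0.11 on the log2 scale. KRT16, low at 0.326 and 1.56 CPM (means of Control and PM2.5), rose by 2.24 ± 0.44. Among 5 tested leukocyte markers LYZ (0.364 to 1.69 CPM), ITGAM (0.243 to 0.713 CPM) and CD14 (1.77 to 3.08 CPM) rose and ITGAX fell (10.1 to 4.65 CPM), so that 80% were called, against 31.9% of all genes. The part of these markers in the members' changes was not tested.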

How the data were processed

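RNA was measured in 6 MDA-MB-231 libraries, grouped by the treatment in the labels. The authors deposited raw counts per gene, per the file headers, and per the submitters' processing notes the build is GRCh38. Aligner, counter and strandedness: not given in the sources used here. Identifiers, coordinates and lengths of all 58735 genes matched GENCODE 29 (lengths are exon unions). Upstream sequences are RefSeq's (GRCh38.p14).

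Low genes were removed with filterByExpr (at least 10 counts, total at least 15); the rest were scaled by TMM and tested with edgeR 4.0.16 in R 4.3.3 (quasi-likelihood, two-sided, group only, Benjamini-Hochberg over 14975 genes). SEs were taken from the fold change and its F statistic. Total counts of 31846136 to 34691009 set the precision.

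The members, gene lists and tests were chosen with earlier results of these data known. Named are all members, every tested gene of the other S100 genes, HMOX1, CYP1A1, HSPA5 and the called genes with the smallest p in each list (up to 4), and others where stated. Genes named only as present or at 0 in the marker lists were chosen after their values were seen. HSPA5 was at 5113 ± 1987 and 12640 ± 383 CPM (Control and PM2.5, mean ± SD), with Control replicate 3 the lowest at 2916 CPM. EGFR, ERBB2, ZEB1 and TRIM29 changed by -0.90, -0.59, 0.52 and 1.07 on the log2 scale. Simulated data for PM2.5 against Control had 14975 genes, with 82 changed 1.5-fold, 60 changed 2-fold and 58 changed 4-fold. On these the fit recovered 46.3% of 1.5-fold, 68.3% of 2-fold and 100% of 4-fold changes, and 3.52% of its calls were unchanged genes. Far fewer genes were changed there than the 31.9% called in the real data, so these shares need not carry over. Alternatives used DESeq2 1.42.0, limma-voom (limma 3.58.1), other scalings and filters, a replicate block, a gene length trend (lowess, span 0.3) and each library left out.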

Additional observations from a re-analysis of the deposited data

How the results depend on the processing

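The calls of S100A3, S100A4 and S100A11 held in all 14 alternatives, with log2 fold changes of 1.13 to 1.56, 0.43 to 0.60 and -0.74 to -0.55. Over these alternatives the adjusted p of S100A13 ran from 0.00377 to 0.0622 and that of S100A2 from 0.00645 to 0.204. With the gene length trend removed 1 member was called lower, S100A6 was at 0.024 and S100A16 at 0.075. The order of levels moved with the length used. Members with counts, S100A10, S100A5 and S100P were ranked, 11 genes in all. Per kilobase of coding sequence 7 of them kept their rank in Control and 5 in PM2.5. Leaving out 1 library at a time gave 1448 to 2680 genes lower (1448 without PM2.5 replicate 1), 1 to 2 members lower and 23 to 44 genes of the other lists (23 without PM2.5 replicate 1, against 39); the cause was not tested. The log2 fold changes then ran from -0.18 to 0.011 for S100A6, -0.18 to 0.024 for S100A16, -0.027 to 0.32 for S100A5 and -0.027 to 0.50 for S100P.

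Deviations of same-numbered libraries from their group means showed no positive correlation (-0.00158, -0.0508 and -0.122). Differently numbered libraries gave -0.105 to 0.139. With 3 libraries a group these values cannot decide whether the replicate numbers of the titles pair the samples. With the replicate block 3777 genes were called in place of 4775, and the same 4 members, S100A13 at an adjusted p of 0.0258 and S100A2, not called, at 0.0948. The summed level of the members changed by -0.12 on the log2 scale, from -0.23 to -0.04 with 1 library left out. S100A14, with 41 counts in all, was tested only without the filter on low counts, and the 0 counts of S100A8 and S100A9 allow levels of up to 0.0864 to 0.0979 CPM in a library.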
